A study of Mus musculus with 34 samples.

Results

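Expression of 10 genes of the hepatic acute phase response was followed through hepatocytes and liver macrophages of mice lacking YAP and TAZ in the bile ducts, with and without chemical injury. The genes were chosen by name: Saa1, Saa2, Saa3, Saa4, Lcn2, Orm1, Orm2, Hp, Hpx and Socs3, which are 10 of the 24951 genes in the hepatocyte table and 10 of the 26233 in the macrophage table. All 10 passed the filter on low counts in both cell types. Every mouse was Yap fl/fl Taz fl/fl, of mixed B6;129P background, and all received tamoxifen (1.6 mg/kg on 5 days at 7 to 8 weeks of age, then 3 weeks of washout). Knockout mice also carried an inducible Cre, iCreERT2, driven by the osteopontin promoter, which is active in biliary cells but not in them alone. Control mice were siblings without the Cre, so tamoxifen was common to all groups while Cre was not. Injured mice received 1 ml/kg of carbon tetrachloride (CCl4), a toxicant activated by hepatocytes around the central vein, and were sampled 48 h later. The labels name no vehicle for the mice without CCl4. Hepatocytes came from 6 control mice (2, 6, 7, 8, 9 and 19) and 5 knockout mice (4, 5, 10, 20 and 21) without CCl4, and from 3 control mice (12, 15 and 16) and 4 knockout mice (13, 14, 17 and 18) with it. Macrophages came from 4 mice per group: control mice 6, 7, 8 and 9, knockout mice 4, 5, 20 and 21, injured control mice 11, 12, 15 and 16, and injured knockout mice 13, 14, 17 and 18. Values listed in a row below follow these orders of mice. No mouse is in 2 groups, and 15 mice gave both cell types.

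The acute phase response is the change in plasma proteins that the liver makes after infection or injury. Interleukin-6 acts through its receptor, gp130 and the transcription factor STAT3, and interleukin-1 and TNF act through NF-kB and C/EBP factors. Together they raise the positive acute phase proteins. The serum amyloid A genes encode apolipoproteins carried on high-density lipoprotein. Saa1 and Saa2 are the strongly inducible ones, Saa3 is also made outside hepatocytes by macrophages and fat cells, and Saa4 is the constitutive one. Lcn2 (lipocalin 2) binds the siderophores with which bacteria take up iron. Orm1 and Orm2 (orosomucoids) are carriers of drugs and lipids, Hp (haptoglobin) binds free haemoglobin, and Hpx (hemopexin) binds free haem. Socs3 encodes no plasma protein: it is a direct STAT3 target that blocks gp130 signalling and so closes the loop.

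Hepatocyte libraries had totals of 931496 to 7535053 counts, and macrophage libraries of 596380 to 5128587. Levels are CPM, counts scaled to the library total and then by TMM factors, unless said otherwise. The numbers of the sequencing files form 2 series, which stand in for a batch. The first held the hepatocytes of control mice 2, 7, 8, 12 and 15 and the macrophages of control mice 8 and 11, and every knockout library was in the second. For the hepatocytes of mouse 15 and the macrophages of mouse 11 a description says knockout where the genotype and group labels say control, and both were kept as controls. Summed hepatocyte markers (10 genes) reached 54808 to 102930 CPM of the library total in hepatocytes. Summed markers of Kupffer cells and macrophages (10 genes) reached 6315 to 23380 CPM in macrophages, where the hepatocyte markers still summed to 403 to 33427 CPM. Tags from near-identical transcripts may be split by the counting. Over the last 300 bases of their transcripts Saa1 and Saa2 are 93.3% identical and Orm1 and Orm2 97.7%, so the members of each pair are uncertain apart from each other. Nothing in the labels says how mice were spread over days of isolation, and the p-values measure the spread between these mice.

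The serum amyloid A genes sit together on chromosome 7 (GRCm38): Saa3 at 46711998 to 46715700, Saa4 at 46727998 to 46732603, Saa1 at 46740497 to 46742980 and Saa2 at 46751790 to 46754313. Lcn2 lies on chromosome 2 (32384633 to 32388252), Orm1 and Orm2 on chromosome 4 (63344560 to 63348163 and 63362449 to 63365878), Hpx on chromosome 7 (105591613 to 105600137), Hp on chromosome 8 (109575128 to 109579172) and Socs3 on chromosome 11 (117966079 to 117970047), all as protein-coding genes. Saa1 and Saa2 lie head to head. Their counts shared most of their variation between mice, as given further down, though tags of these near-identical transcripts may be split by the counting. The 250 bases before each start are shown for these genes because the family's members differ so much in how they behaved. They are RefSeq sequences (GRCm38.p6), read 5′ to 3′ on the strand of the gene, and capitals mark each match to the C/EBP letters TTGCNNAA on either strand. The windows are chr7:46742981-46743230 (minus strand) for Saa1, chr7:46751583-46751832 (plus strand) for Saa2, chr7:46715677-46715926 (minus strand) for Saa3 and chr7:46732604-46732853 (minus strand) for Saa4.
Saa1: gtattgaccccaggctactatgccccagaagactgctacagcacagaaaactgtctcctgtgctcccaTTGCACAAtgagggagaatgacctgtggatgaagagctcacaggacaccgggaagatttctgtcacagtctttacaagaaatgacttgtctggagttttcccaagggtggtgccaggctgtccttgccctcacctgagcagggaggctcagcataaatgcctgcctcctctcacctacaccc
Saa2: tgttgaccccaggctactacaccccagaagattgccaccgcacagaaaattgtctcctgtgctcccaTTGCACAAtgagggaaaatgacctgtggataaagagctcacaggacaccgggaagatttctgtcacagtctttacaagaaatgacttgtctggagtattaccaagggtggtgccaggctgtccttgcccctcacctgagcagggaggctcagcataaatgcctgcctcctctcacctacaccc
Saa3: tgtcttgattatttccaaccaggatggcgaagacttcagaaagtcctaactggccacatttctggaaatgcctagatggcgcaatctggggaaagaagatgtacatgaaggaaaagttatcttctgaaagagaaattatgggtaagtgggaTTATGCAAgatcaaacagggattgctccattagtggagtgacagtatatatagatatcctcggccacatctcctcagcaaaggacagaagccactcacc
Saa4: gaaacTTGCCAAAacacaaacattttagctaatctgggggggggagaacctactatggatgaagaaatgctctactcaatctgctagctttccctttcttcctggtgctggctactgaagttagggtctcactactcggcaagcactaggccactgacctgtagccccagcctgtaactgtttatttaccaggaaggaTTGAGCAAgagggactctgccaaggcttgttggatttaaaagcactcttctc
The 300-base windows of Saa1 and Saa2, which run on 50 bases past the start, are 95.7% identical. Saa1 shares 64.0% with Saa3 and 60.0% with Saa4. It shares about as much with the orosomucoid genes Orm2 (62.3%) and Orm3 (63.0%), so the values for Saa3 and Saa4 do not set the family apart. The same match, TTGCACAA, stands 182 bases before the start of Saa1 and 183 bases before that of Saa2. Saa3 has one match 99 bases before its start, and Saa4 has them 245 and 52 bases before. Of the 10 genes 8 have a window in the table, and those of Lcn2, Orm2 and Hpx also hold a C/EBP match, as do 10.8% of all 32851 windows of this length. Only Socs3 among these 8 holds the STAT letters TTCNNNGAA (8.30% of all windows), as TTCTTAGAA 154 bases before its start. These are matches of letters in a short window and show neither binding nor its absence.

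Most of these genes are hepatocyte products, and the data place them there with 2 exceptions, Socs3 and, depending on the group, Saa3. In the 15 mice with both libraries, Saa1, Saa2, Saa4, Lcn2, Orm1, Hp and Hpx had the higher CPM of the library total in hepatocytes in 15 of 15 mice, and Orm2 in 13 of 15. Socs3 was higher in macrophages in 15 of 15 mice. Saa3 was higher in macrophages in 9 of 15, and the side differed by group. Its fold of hepatocytes over macrophages was 0.0334, 0.0120, 0.164 and 0.227 in uninjured control mice 6, 7, 8 and 9. In uninjured knockout mice 4, 5, 20 and 21 it was 7.94, 1.84, 1.38 and 0.453. Injured control mice 12, 15 and 16 had folds of 3.18, 0.856 and 29.0. Injured knockout mice 13, 14, 17 and 18 had folds of 0.797, 0.416, 2.56 and 0.309. Against albumin (Alb), the chief hepatocyte transcript, the picture separates further. Alb itself ran from 229 to 21211 CPM of the library total in the macrophage libraries. Per 1000 Alb counts, the fold of macrophage over hepatocyte library of a mouse lay between 0.568 and 3.72 for 7 of the genes, with medians of 1.19 for Saa1, 1.23 for Saa2, 1.14 for Saa4, 1.47 for Lcn2, 1.23 for Orm1, 1.37 for Hp and 1.16 for Hpx. Each of the 7 was above 1 in 11 or more of 15 mice, and Lcn2 in 14 of 15 (0.916 to 3.72). Orm2, with few counts in macrophages, ran from 0 to 9.54 (median 1.29, above 1 in 8 of 15 mice). Saa3 stood at 18.2 (1.05 to 336, above 1 in 15 of 15 mice) and Socs3 at 30.9 (14.6 to 836, 15 of 15). The share of these transcripts in the macrophage libraries that came from hepatocytes was not tested beyond these ratios. They were not compared by a test across cell types, since the 2 tables come from separate preparations.

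**Figure D1:**
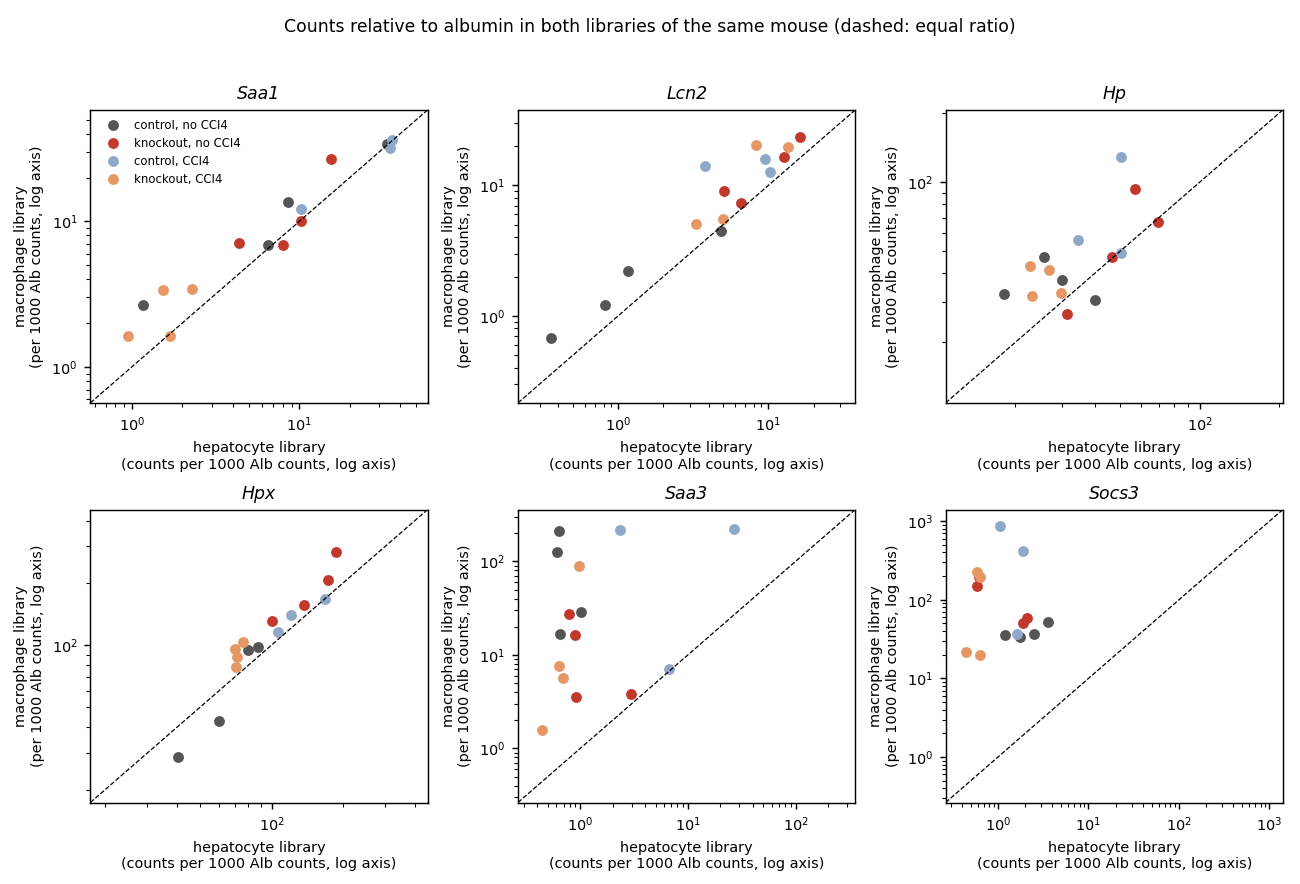
Counts of 6 genes per 1000 Alb counts in the hepatocyte library (horizontal, log axis) and the macrophage library (vertical, log axis) of the same mouse, 1 point per mouse, coloured by group, with a dashed line where both are equal. Saa1, Lcn2, Hp and Hpx lie near the line, with median folds of 1.19, 1.47, 1.37 and 1.16, whereas Saa3 and Socs3 lie above it in 15 of 15 mice.

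In hepatocytes most of these genes fell after CCl4 in knockout mice, and few were called in control mice. The direct test of that contrast, given further down, called 0 of 10 (0.217% of all genes). After CCl4 in control mice 1 of 10 rose (Saa3) and 1 fell (Saa4), where 13.7% of the 9679 genes tested rose and 13.7% fell (edgeR, Benjamini-Hochberg adjusted p under 0.05, as for every call below). After CCl4 in knockout mice 0 of 10 rose and 6 of 10 fell (Saa1, Saa2, Saa4, Orm1, Hp and Hpx), where 6.84% of all genes fell. Without CCl4, knockout mice had 3 of 10 higher than controls (Lcn2, Orm1 and Hpx), where 4.64% of all genes were higher and 7.87% differed either way, and 0 of 10 lower. After CCl4, knockout mice had 1 of 10 lower than controls (Saa3), where 0.0517% of all genes were lower. The median log2 difference over the 10 genes was -0.04 for CCl4 in controls, -1.46 for CCl4 in knockout mice, 0.71 for the knockout without CCl4 and -0.47 after it, beside -0.01, -0.02, 0.01 and 0.01 over all genes. The comparisons share groups and are not independent of each other. In these sorted populations, fewer cells making a transcript and less transcript per cell cannot be told apart. The 3 calls for the uninjured knockout were lost with the file series as a term and within the second series alone. Each of these fits called 0 of 10. Their shares of all genes are not given, so the loss cannot be read as particular to these genes.

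**Figure D2:**
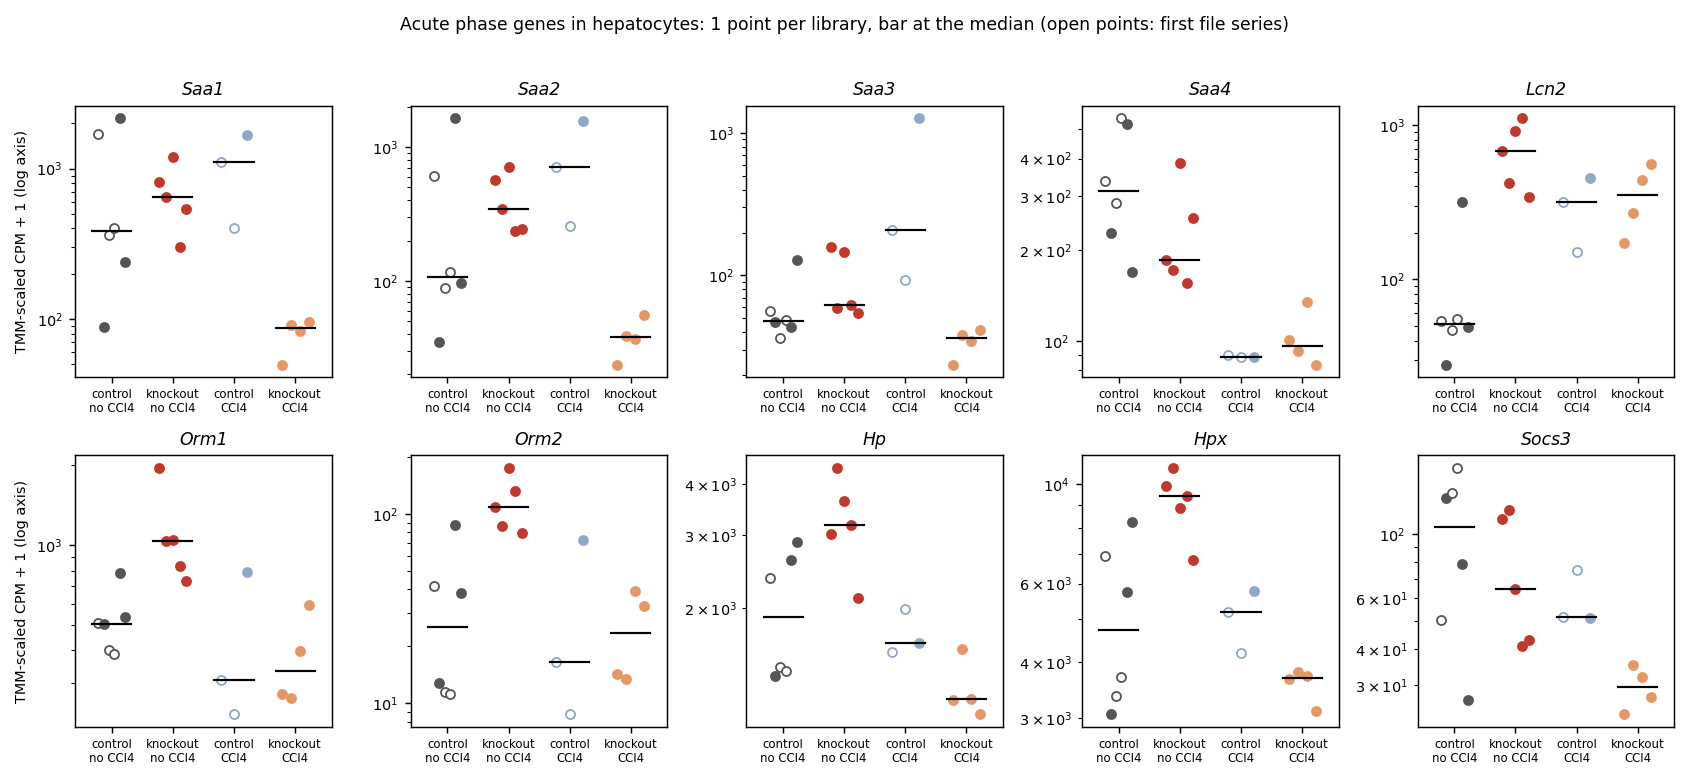
TMM-scaled CPM plus 1 (log axis) of the 10 genes in hepatocyte libraries, 1 point per mouse by group, with a bar at the group median and open points for the first file series. Saa1 and Saa2 were at most 94.5 and 54.4 CPM in the 4 injured knockout mice, below each of the 5 uninjured knockout mice and each of the 3 injured control mice, and Lcn2 was higher in each of the 5 uninjured knockout mice than in any of the 6 uninjured controls.

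Saa1 and Saa2, the inducible serum amyloids, fell after CCl4 in knockout hepatocytes and were not called in control ones. In controls the log2 differences were 0.35 for Saa1 (SE 0.763, adjusted p = 0.786) and 0.97 for Saa2 (SE 0.922, adjusted p = 0.486). The test of whether CCl4 acted differently in the 2 genotypes called neither gene (adjusted p = 0.219 for each). Its log2 value was -3.50 for Saa1 (SE 1.09) and -4.42 for Saa2 (SE 1.37). Saa1 stood at 817, 646, 1195, 301 and 536 CPM in the 5 uninjured knockout mice. It stood at 48.8, 89.8, 81.6 and 94.5 CPM in the 4 injured ones. All 4 injured mice were below all 5 uninjured mice, an 8.87-fold decrease (log2 -3.15, SE 0.835, adjusted p = 0.0208). Injured control mice held 1101, 404 and 1662 CPM of Saa1, each above the injured knockout mice. That difference, 13.4-fold (log2 -3.74, SE 0.899), did not pass the test (adjusted p = 0.147). Uninjured control mice ranged from 88.03 to 2169 (median 381) CPM of Saa1, so widely that they overlapped each of the other groups. Saa2 followed the same course. It was 563, 344, 708, 235 and 242 CPM in uninjured knockout mice and 22.7, 37.9, 35.7 and 54.4 CPM in injured ones, 10.96-fold lower (log2 -3.45, SE 1.06, adjusted p = 0.0413). Injured controls had 713, 255 and 1559.7 CPM of Saa2, again each above the injured knockout mice (log2 -4.46, SE 1.15, adjusted p = 0.169). Uninjured controls ranged from 34.04 to 1646 (median 106) CPM of Saa2. The Saa2 call for CCl4 in knockout mice was lost in 14 of 30 alternative fits and the Saa1 call in 5 of 30, among them the fit that moved mouse 15 to the knockout group (adjusted p = 0.132 for Saa2 and 0.071 for Saa1). The 30 fits of each gene include that in which Saa1 and Saa2 were summed.

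Saa3, the serum amyloid also made by macrophages, rose in hepatocyte libraries of injured controls. It was 207, 91.9 and 1269.8 CPM there, against 35.4 to 127 (median 46.8) CPM in the 6 uninjured controls, 9.02-fold higher (log2 3.17, SE 0.622, adjusted p = 0.00141). The groups overlapped, since uninjured mouse 19 was above injured mouse 15. Mouse 16 was far above the other injured controls, and without it the log2 difference was 1.37 (SE 0.454, adjusted p = 0.0392). Injured knockout mice had 22.7, 37.2, 33.8 and 40.1 CPM of Saa3, each below the 3 injured controls and 15.5-fold lower (log2 -3.95, SE 0.747, adjusted p = 0.0482). This call was narrow: it was lost in 19 of 30 alternative fits, among them edgeR's older quasi-likelihood method (adjusted p = 0.0606), and without mouse 16 the log2 difference was -2.15 (SE 0.504, adjusted p = 0.0478). Uninjured knockout mice had 156, 57.9, 144, 61.4 and 53.1 CPM of Saa3, overlapping the uninjured controls. Macrophage markers in the hepatocyte libraries also differed between groups. The 10 Kupffer cell and macrophage markers summed to 324 to 438 CPM of the library total in injured controls, 9.37 to 179 in uninjured controls, 111 to 1264 in uninjured knockout mice and 148 to 323 in injured knockout mice. In injured controls 4 of these 10 markers rose, and in the injured knockout 0 of 10 were called. Their part in the Saa3 result was not tested.

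Saa4, the constitutive serum amyloid, fell after CCl4 in both genotypes. Uninjured controls ranged from 168 to 544 (median 311) CPM, and injured controls had 89.1, 87.7 and 87.2 CPM, all below the lowest uninjured mouse (3.95-fold lower, log2 -1.98, SE 0.354, adjusted p = 0.00034). Uninjured knockout mice had 183, 171, 386, 154 and 254 CPM of Saa4 and injured knockout mice 99.5, 91.4, 133 and 82.6 CPM, again without overlap (2.27-fold lower, log2 -1.18, SE 0.320, adjusted p = 0.0177). This knockout call was lost in 4 of 30 alternative fits. Among those were the fits without mouse 10 (log2 -0.91, adjusted p = 0.0551), 14 (-1.14, adjusted p = 0.0526) or 18 (-1.09, adjusted p = 0.0695). The injured controls were almost equal to each other, and the injured knockout mice lay around them. With the second file series alone, in which mouse 16 is the single injured control, the Saa4 call in controls was lost (adjusted p = 0.119), at a log2 difference of -1.75.

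Lcn2, the siderophore binder, had the largest genotype difference of the 10 genes in uninjured hepatocytes. Knockout mice had 678, 417, 916, 1109.8 and 341 CPM. Of the 6 controls 5 had 27.0 to 53.9 CPM of Lcn2, and mouse 9 had 318 CPM. All 5 knockout mice were above all 6 controls (1.79% of all genes were separated upward), a 7.75-fold difference (log2 2.95, SE 0.608, adjusted p = 0.0112). Adding the file series to the model gave a log2 difference of 2.45 (SE 0.644, adjusted p = 0.099), and within the second series the difference was 2.40 (SE 0.809, adjusted p = 0.313), where only 3 controls remain. Injured controls had 318, 149 and 456 CPM of Lcn2 and injured knockout mice 169.7, 267, 440.0 and 558 CPM, values that overlapped. The rise in Lcn2 after CCl4 in controls did not pass the test (log2 1.78, SE 0.654, adjusted p = 0.0548), and it passed in 7 of 30 alternative fits, among them the fit with the file series as a term (log2 2.05, SE 0.603, adjusted p = 0.019) and that without mouse 9 (log2 2.77, SE 0.426, adjusted p = 0.000167). Lcn2 is also a neutrophil transcript. Of 10 neutrophil markers 9 were among the genes counted in hepatocytes, and none of them passed the filter. They summed to at most 9.81 CPM of the library total in uninjured knockout hepatocytes and to between 0.493 and 47.9 CPM in the controls. In the same mice 7 of 10 Kupffer cell and macrophage markers were higher than in controls, beside 4.64% of all genes, as were 2 of the 5 biliary markers tested (median log2 1.72, sums of 83.3 to 307 CPM against 30.4 to 92.1 in controls). Stellate cell markers summed to 142 to 1107 CPM against 10.03 to 286, with 0 of 7 called and 3 at an unadjusted p under 0.05. The part of these cells in the Lcn2 difference was not tested. Per 1000 Alb counts, Lcn2 was higher in the macrophage library in 14 of 15 mice, by at most 3.72-fold.

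Orm1 and Orm2, the orosomucoids, were highest in uninjured knockout hepatocytes and lower in injured ones. Orm1 was 1958, 1034, 1042, 833 and 731 CPM in uninjured knockout mice against 388 to 784 (median 504) CPM in the controls, 2.16-fold higher with an overlap at 1 control mouse (log2 1.11, SE 0.319, adjusted p = 0.039). This call was lost in 12 of 30 alternative fits, with either handling of the file series among them. In injured knockout mice Orm1 was 272, 264, 396 and 592 CPM, below each uninjured knockout mouse (2.94-fold lower, log2 -1.55, SE 0.368, adjusted p = 0.00808), and this call held in 30 of 30 alternative fits. Injured controls had 308, 228 and 793 CPM of Orm1, overlapping every other group. Orm2 was 108, 85.3, 175, 131 and 78.8 CPM in uninjured knockout mice against 10.2 to 86.6 (median 24.4) CPM in controls (log2 1.88, SE 0.624, adjusted p = 0.0752). It was 13.4, 12.4, 38.5 and 31.5 CPM in injured knockout mice, without overlap with the uninjured ones (log2 -2.27, SE 0.736, adjusted p = 0.0532). Neither Orm2 difference passed the test as fitted. The decrease in knockout mice passed in 13 of 30 alternative fits, among them the file series as a term (log2 -2.26, adjusted p = 0.0184) and the second series alone (log2 -2.24, adjusted p = 0.0134). The 13 include the fit of summed copies, given next, which is not a fit of Orm2 alone. The counts of Orm1, Orm2 and the third copy Orm3, summed to 1 row because their tags are so alike, passed both (log2 1.07, SE 0.315, adjusted p = 0.0436, and log2 -1.63, SE 0.365, adjusted p = 0.0054). That row is mostly Orm1, whose mean in uninjured knockout mice was 1120 CPM, against 116 for Orm2 and 68.7 for Orm3. Orm1 had passed both comparisons alone, so the summed row says nothing on Orm2.

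Hp and Hpx, the scavengers of haemoglobin and haem, had the steadiest decrease after CCl4 in knockout mice. Hp was 3023, 4374, 3640.5, 3183 and 2112 CPM in uninjured and 1198, 1593, 1204 and 1105 CPM in injured knockout mice, without overlap (2.56-fold lower, log2 -1.36, SE 0.255, adjusted p = 0.00117). Hpx was 9888, 10881, 8856, 9409 and 6772 CPM in uninjured and 3663, 3805, 3726 and 3108 CPM in injured knockout mice, again without overlap (2.56-fold lower, log2 -1.36, SE 0.265, adjusted p = 0.00162). Both calls held in 30 of 30 alternative fits. In controls neither gene was called after CCl4. Uninjured controls ranged from 1365 to 2895 (median 1904) CPM for Hp and from 3062 to 8245 (median 4735) CPM for Hpx. Injured controls had 1566, 1987 and 1648 CPM of Hp and 5181, 4192 and 5787 CPM of Hpx. The injured knockout mice were each below the 3 injured controls for Hpx, a difference that did not pass the test (log2 -0.50, SE 0.290, adjusted p = 0.466). Without CCl4, Hpx was 1.77-fold higher in knockout mice than in controls (log2 0.82, SE 0.231, adjusted p = 0.0336), while Hp missed the threshold (log2 0.70, SE 0.222, adjusted p = 0.0559). Both overlapped the controls, and the Hpx call was lost with the file series as a term (log2 0.69, adjusted p = 0.221) and among second-series libraries (log2 0.67, adjusted p = 0.337), where the difference itself changed little.

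Socs3, the feedback inhibitor, was not called in any comparison of hepatocytes. It ranged from 25.5 to 169 (median 105) CPM in uninjured controls. Uninjured knockout mice had 111, 120.3, 63.5, 39.98 and 41.98 CPM of Socs3 and injured controls 50.7, 74.1 and 50.3 CPM. Injured knockout mice, at 22.7, 34.1, 30.96 and 26.2 CPM, were below each mouse of those 2 groups. The decrease of Socs3 after CCl4 in knockout mice had an adjusted p of 0.0538 (log2 -1.42, SE 0.472), and the difference from injured controls an adjusted p of 0.397 (log2 -1.05, SE 0.508).

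Counted by separation, 9 of 10 genes (all but Lcn2) had every injured knockout mouse below every uninjured knockout mouse, where 6.37% of all genes did. Saa1, Saa2, Saa3, Hpx and Socs3, 5 of 10, had every injured knockout mouse below every injured control, where 5.84% of all genes did. Among these injured controls, mice 12 and 15 were in the first file series and every knockout mouse in the second. Mouse 15 also has conflicting labels. In controls 1 of 10 (Saa4) was separated after CCl4, downward, where 11.7% of all genes were. The test of whether CCl4 acted differently in the 2 genotypes called 0 of 10 (0.217% of all genes). At an unadjusted p under 0.05 there were 8 of 10. The share of all genes at that threshold was not counted, here or for any other unadjusted count in this text. The 8 can thus not be read as a result about these genes. Several of these genes, though not all, also vary together within groups, as given further down. For this interaction DESeq2 called 2 of 10 and limma voom 1. Their shares of all genes are not given, so neither count can be read as particular to these genes. Saa3 came nearest (log2 -4.67, SE 0.923, adjusted p = 0.0511), and it passed in 11 of 29 alternative fits, among them the file series as a term (log2 -4.28, SE 0.754, adjusted p = 0.0293). Without mouse 16 the Saa3 value was -2.87 (SE 0.626, adjusted p = 0.0879). The same fit took Orm1 from -1.33 to -0.60 (adjusted p = 0.682) and Orm2 from -2.23 to -0.83 (adjusted p = 0.807). For Hpx the interaction was -1.32 (SE 0.370, adjusted p = 0.129) and for Hp -1.14 (SE 0.356, adjusted p = 0.193). The 10 Kupffer cell and macrophage markers moved with this interaction, 10 of 10 at an unadjusted p under 0.05 and 0 of 10 called, with a median of -3.11. Their part in it was not tested.

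**Figure D3:**
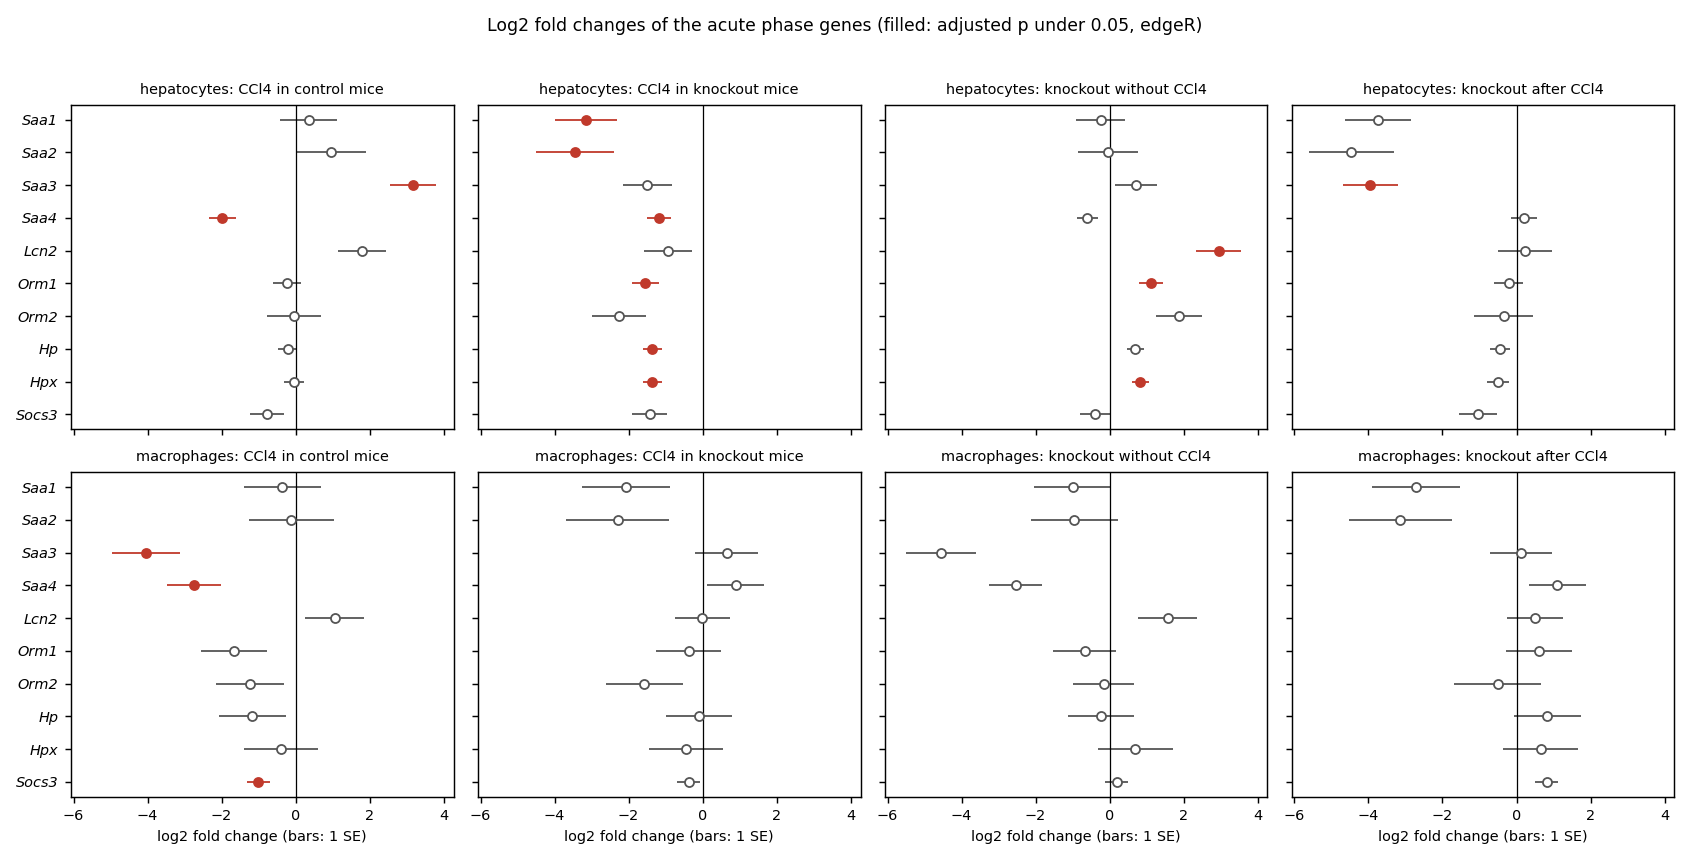
Log2 fold changes of the 10 genes (horizontal, bars of 1 SE) in 4 comparisons, hepatocytes above and macrophages below, filled where the adjusted p was under 0.05. In knockout hepatocytes all 10 points lie below 0 after CCl4 and 6 are filled, and in macrophages the filled points are Saa3, Saa4 and Socs3 after CCl4 in control mice.

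In macrophages 3 of 10 genes fell after CCl4 in control mice (Saa3, Saa4 and Socs3), where 6.39% of the 10815 genes tested fell and 13.2% were called either way, and 0 of 10 rose. The same 3 were separated downward without overlap, where 9.61% of all genes were. No gene of the 10 was called in the other comparisons. These called 0.166% of all genes for the knockout without CCl4, 0.0647% for the knockout after CCl4, 0.878% for CCl4 in knockout mice and 0.194% for the interaction. At an unadjusted p under 0.05 there were 2, 3, 0 and 2 of the 10, with no share of all genes counted at that threshold. DESeq2 called 1 for the knockout without CCl4 and 1 for the interaction, and limma voom 1 for the knockout without CCl4. The shares of all genes called by these 2 methods are not given, so these counts cannot be read as particular to the 10 genes.

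Saa3 was the member that varied most among macrophages. Uninjured controls had 1357, 2956, 254 and 179 CPM. Injured controls had 49.2, 65.4, 121 and 50.98 CPM, each below the 4 uninjured controls (16.5-fold lower, log2 -4.04, SE 0.916, adjusted p = 0.0111), and this call held in 28 of 28 alternative fits. Uninjured knockout mice had 21.8, 33.8, 44.5 and 100.1 CPM of Saa3, also each below the controls, as were Saa4 and 5.06% of all genes (23.7-fold lower, log2 -4.56, SE 0.944), a difference that did not pass the test (adjusted p = 0.0731). Injured knockout mice had 31.5, 91.8, 13.98 and 164 CPM of Saa3. The high level thus belonged to uninjured controls, and within them to mice 6 and 7. The hepatocyte libraries of these 2 mice held 45.8 and 35.4 CPM of Saa3, the second of them the lowest of the uninjured controls. Markers of other cells differed between the same groups of macrophage libraries. Recruited monocyte markers summed to 145 to 297 CPM of the library total in uninjured controls, 686 to 922 in injured controls, 314 to 469 in uninjured knockout mice and 286 to 404 in injured ones. Neutrophil markers summed to 69.9 to 126 CPM in uninjured controls and to 163 CPM or more in each other library. Stellate cell markers summed to 241 to 651 CPM in uninjured controls, 151 to 2003 in injured controls, 747 to 4078 in uninjured knockout mice and 557 to 4203 in injured ones. Their part in the Saa3 values was not tested. For the second file series alone the genotype difference was -4.90 (SE 0.967, adjusted p = 0.076). The interaction for Saa3 was 4.69 (SE 1.23, adjusted p = 0.138).

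**Figure D4:**
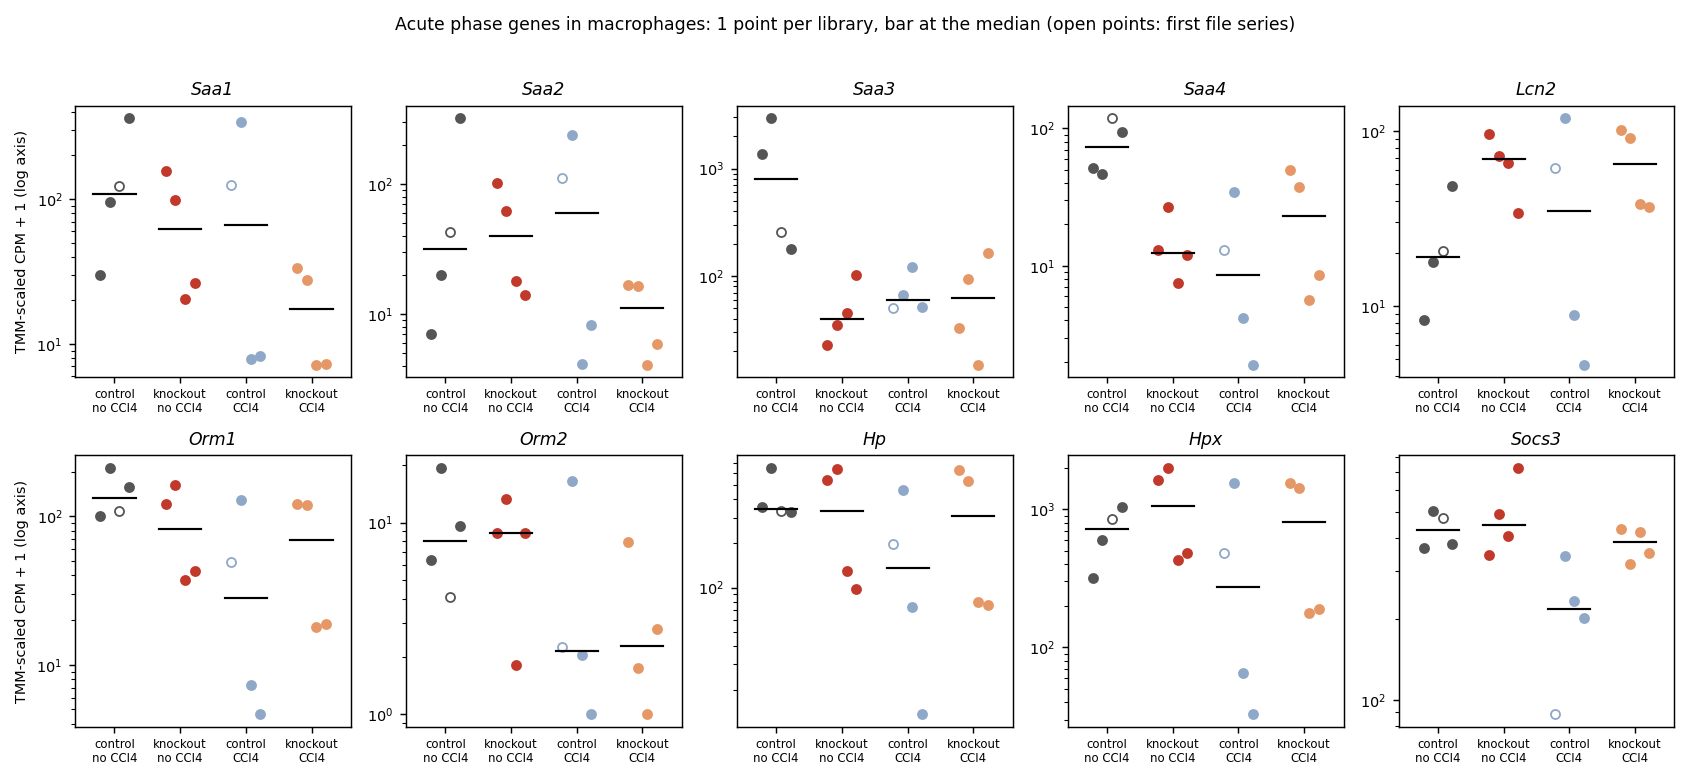
TMM-scaled CPM plus 1 (log axis) of the 10 genes in macrophage libraries, 1 point per mouse by group, with a bar at the group median and open points for the first file series. Saa3 was at least 179 CPM in the 4 uninjured controls and at most 164 CPM in the other 12 libraries, and Socs3 was lowest in injured controls.

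Saa4 in macrophages was 50.3, 45.4, 118 and 93.2 CPM in uninjured and 12.1, 33.2, 3.14 and 0.91 CPM in injured controls, without overlap (6.73-fold lower, log2 -2.75, SE 0.733, adjusted p = 0.0229). This call was lost in 7 of 28 alternative fits, at log2 differences of -2.79 to -2.40: the second series alone (adjusted p = 0.11), the conflicting library as a knockout, thinned counts, and without mouse 8, 11, 15 or 16. Uninjured knockout mice, at 11.9, 25.6, 6.47 and 11.05 CPM of Saa4, were also each below the uninjured controls (log2 -2.54, SE 0.723, adjusted p = 0.166). Hepatocyte markers differed between these libraries as well. They summed to 15006 to 17319 CPM of the library total in uninjured controls, 403 to 15589 in injured controls, 3872 to 12448 in uninjured knockout mice and 2842 to 33427 in injured ones. The medians over the 10 hepatocyte markers were -1.80 for CCl4 in controls and -1.75 for the knockout without CCl4 on the log2 scale, with 1 and 0 of 10 called. Their part in the Saa4 values was not tested.

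Socs3 in macrophages was 365, 503, 472 and 379.7 CPM in uninjured controls and 87.7, 341, 233 and 200.3 CPM in injured ones, without overlap (2.01-fold lower, log2 -1.01, SE 0.311, adjusted p = 0.04). The lowest value was that of mouse 11, whose labels conflict, and with that library in the knockout group the adjusted p was 0.237. The call was lost in 14 of 28 alternative fits, the older quasi-likelihood method included (adjusted p = 0.0506). Knockout mice had 343, 489, 404 and 726 CPM of Socs3 without and 429, 317, 419 and 351 CPM with CCl4, and no genotype difference was called (adjusted p = 0.857 and 0.5). Markers of recruited monocytes rose after CCl4 in control macrophages, 5 of 6 called, from 145 to 297 to 686 to 922 CPM of the library total. Their part in the Socs3 decrease was not tested.

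The other 7 genes were not called in any comparison of macrophages. Saa1 ran from 6.21 to 362 CPM over the 16 libraries, Lcn2 from 3.64 to 117 CPM and Hpx from 31.9 to 1995 CPM. Orm2 was near the floor of counting, with at most 23 counts and 2 libraries at 0. In injured controls, mouse 12 had the highest value for 9 of the 10 genes, and mouse 13 for 9 of 10 in injured knockout mice. Those libraries also carried the highest summed hepatocyte markers of their groups, 15589 and 33427 CPM.

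Other acute phase genes also fell in hepatocytes after CCl4 in knockout mice. Of 21 such genes, 10 fell and 0 rose in knockout mice (6.84% of all genes fell, and 13.9% were called either way), with a median of -0.85 on the log2 scale beside -0.02 over all genes. The lowest p-values were those of complement C4b (log2 -0.84, adjusted p = 0.00459), Itih3 of the inter-alpha-trypsin inhibitor family (-1.14, adjusted p = 0.00466), the lipopolysaccharide binder Lbp (-1.10, adjusted p = 0.00646) and complement C3 (-0.85, adjusted p = 0.00795). In controls 5 of these 21 fell and 1 rose, a number called that is near the background (13.7% of all genes fell, and 27.4% were called either way), with a median of -0.38. The angiotensinogen gene Agt (-1.21, adjusted p = 0.000876), Crp (-0.96, adjusted p = 0.00101), C4b (-0.96, adjusted p = 0.0012) and Orm3 (-2.97, adjusted p = 0.00265) led the list. Without CCl4 the knockout raised 2 of 21 and lowered 1 (7.87% of all genes called), among them the copper carrier ceruloplasmin, Cp (1.65, adjusted p = 0.000174), the ferrireductase gene Steap4 (1.30, adjusted p = 0.041) and Agt (-0.84, adjusted p = 0.0164). After CCl4, 0 of 21 differed by genotype (0.176% of all genes), with 6 at an unadjusted p under 0.05. Of the 9 negative acute phase genes, which fall in inflammation, 4 fell after CCl4 in each genotype (13.7% of all genes fell in controls and 6.84% in knockout mice), among them the corticosteroid-binding globulin gene Serpina6 (-4.05, adjusted p = 0.00111, in controls and -3.38, adjusted p = 0.00545, in knockout mice) and Fetub (-0.87, adjusted p = 0.0169, and -1.46, adjusted p = 0.000637).

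Receptor and signalling genes upstream of these proteins were called about as often as all genes in hepatocytes of injured controls. Of 17 genes of IL-6 family receptors and STAT3 signalling tested, 2 rose and 3 fell (27.4% of all genes were called), with a median of -0.27 on the log2 scale. Osmr, the oncostatin M receptor, rose (log2 3.06, adjusted p = 0.000575). Lifr, the leukaemia inhibitory factor receptor (-1.13, adjusted p = 0.00615), Il6ra, the interleukin-6 receptor (-1.57, adjusted p = 0.0217), and the transcription factor gene Cebpa (-1.35, adjusted p = 0.00373) fell. In the uninjured knockout Lifr was lower (-1.92, adjusted p = 0.000169) and Osmr higher (2.32, adjusted p = 0.038), 2 of 17 called beside 7.87% of all genes. After CCl4 in knockout mice Cebpa alone fell (-0.95, adjusted p = 0.0396), 1 of 17 beside 13.9% of all genes called, and between injured genotypes 0 of 17 were called, with 5 at an unadjusted p under 0.05. Of 13 genes of IL-1, TNF and NF-kB signalling tested, 4 rose after CCl4 in controls (13.7% of all genes rose), including the feedback inhibitors Nfkbia (1.34, adjusted p = 0.00119) and Tnfaip3 (2.53, adjusted p = 0.00485), and Il1rap, a subunit of the interleukin-1 receptor, fell (-1.41, adjusted p = 0.0158). The uninjured knockout had 4 of 13 higher, beside 4.64% of all genes, among them Nfkb2 (1.55, adjusted p = 0.0041), Tnfaip3 (2.73, adjusted p = 0.0107) and the toll-like receptor gene Tlr2 (2.20, adjusted p = 0.0136). Only 3 of 11 cytokine genes could be tested in hepatocytes. Of these Tnf and Il1a were higher after CCl4 in controls (3.27, adjusted p = 0.00249, and 2.50, adjusted p = 0.0215) and in the uninjured knockout (3.50, adjusted p = 0.00733, and 2.98, adjusted p = 0.0204). Those are macrophage transcripts as well. Of the 11 cytokine genes 9 were among those counted. They summed to 3.95 to 221 CPM of the library total in hepatocytes and 1633 to 5597 in macrophages. The IL-1, TNF and NF-kB genes summed to 450 to 1657 CPM in hepatocytes and 5217 to 10638.5 in macrophages. Of the 10 Kupffer cell and macrophage markers, 4 rose after CCl4 in controls (13.7% of all genes) and 7 were higher in the uninjured knockout (4.64%). The part of macrophages in these differences was not tested.

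In macrophages 2 cytokine genes that drive the response fell after CCl4 in controls. These were, of 6 tested, Il6 (log2 -2.74, adjusted p = 0.000411) and Il1b (-1.12, adjusted p = 0.011), while 0 rose (6.39% of all genes fell and 13.2% were called), and the median over the 6 was -0.80 on the log2 scale beside -0.03 over all genes. In knockout mice 0 of 6 were called, with Il6 at -1.76 (adjusted p = 0.0534) and 4 at an unadjusted p under 0.05. Of 18 IL-6 family and STAT3 genes 3 fell and 1 rose in injured controls, beside the same shares of all genes, with Cebpd (-1.86, adjusted p = 0.00277), Junb (-0.95, adjusted p = 0.00887) and Il6ra (-1.17, adjusted p = 0.0143) lower and Il11ra1 higher (1.08, adjusted p = 0.00549). Socs3, described above, is a target of the same pathway. Of 10 genes for receptors and clearance of these proteins 4 fell and 1 rose in injured controls, again beside 6.39% and 13.2% of all genes. The scavenger receptor Cd36 rose (2.37, adjusted p = 2.16e-05), while Fpr1 (-2.66, adjusted p = 0.000516) and Fpr2 (-1.42, adjusted p = 0.0109), formyl peptide receptors of which the second binds serum amyloid A, and Cd163, the receptor for haptoglobin bound to haemoglobin (-2.15, adjusted p = 0.0349), fell. In uninjured knockout macrophages Cd36 was also higher (1.28, adjusted p = 0.0318), 1 of 10 beside 0.166% of all genes.

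Within groups, the genes varied together to different degrees. Over 18 hepatocyte libraries, the Pearson r of deviations from the group means (log2 of TMM-scaled CPM plus 1) was 0.96 between Saa1 and Saa2, 0.83 between Hp and Hpx, 0.79 between Saa2 and Lcn2, 0.78 between Orm2 and Lcn2 and 0.74 between Orm1 and Orm2. Saa3 was nearest to Orm1 (0.73), and Socs3 was opposed to Hpx (-0.58). Mouse 9 was the highest uninjured control for 5 of the 10 genes and mouse 6 the lowest for 5. Outside the 10, the genes most like Saa1 were Atp5s (0.83), C330021F23Rik (0.82) and the metallothionein gene Mt1 (0.81). Among the nearest to Hpx were the sialyltransferase gene St6gal1 (0.94) and complement factor I, Cfi (0.84). Those nearest to Socs3 were Mknk2 (0.89) and the clock-linked genes Tef (0.87) and Nr1d2 (0.86). In 16 macrophage libraries the 8 hepatocyte-type genes were correlated with each other at 0.51 to 0.97, and with hepatocyte genes such as Itih4 (0.98 with Orm1 and with Hpx). Saa3 and Socs3 stood outside that block, at no more than 0.40 with any other member. Libraries share their preparation and depth, so these values describe the libraries and carry no test. Tags of Saa1 and Saa2, and of Orm1 and Orm2, may be split between near-identical transcripts. The part of this in their correlations was not tested.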

How the data were processed

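Hepatocytes came from a Percoll gradient and a sort for cells that excluded propidium iodide. The macrophage sort took cells positive for F4/80 and CD45, per the labels' protocols. Libraries were QuantSeq 3′ forward, read as single 50 bp reads. The submitters' processing notes name Trimmomatic 0.39, HISAT2 2.1.0 and the build GRCm38. Which program counted reads, with what annotation and strand setting, is not given in the sources used here. The deposited tables hold the authors' raw counts, 1 row per gene name and 1 column per library. Totals were 596380 to 7535053 counts, and 3 counts stood for 0.398 to 5.03 CPM.

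Groups follow the group labels. Each cell type was fitted once over its 4 groups in R 4.3.3 with edgeR 4.0.16 (filterByExpr, TMM factors, robust quasi-likelihood F tests), adjusted by Benjamini-Hochberg over all genes tested, with a call at 0.05. SEs are the log2 difference over the square root of F. The quasi-likelihood method of edgeR's current version is the main one and was chosen over the older default after both had been run, since it gave the gene counts of an earlier analysis of these data. Simulated counts were used to test the main fit in the comparisons between single groups, with the outcome not given here. The interaction and the alternative fits were not simulated. The 10 genes and all gene lists were chosen with earlier results of these data known, and the motif letters were set after the values were seen. NF-kB patterns, tried in 2 forms, matched none of the windows and are not reported. Named genes beyond the 10 are up to 4 per list with the lowest p, and for likeness the 3 nearest genes, of which some are shown.

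The alternatives tried were DESeq2 1.42.0, voom in limma 3.58.1, RLE factors, no filter, non-robust fits, the contrast's own groups, the file series (read from the widest gap in the file numbers, 14 to 25) as a term, the second series alone, the conflicting libraries as knockouts, thinning to the smallest total, summed gene copies, each library left out in turn and, added after seeing the data, the older quasi-likelihood method. In the fit of summed copies, the sum of Saa1 and Saa2 stood for each of them. The sum of Orm1, Orm2 and Orm3 stood for Orm1 and for Orm2. Gene positions are from the GRCm38 annotation and promoter windows from RefSeq, GRCm38.p6.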

Additional observations from a re-analysis of the deposited data

Results flagged for a closer look

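Of 70 groups of 4 or more libraries examined, one for each gene and group, 3 held a library whose distance to the next was large for the range of its group. Chance alone gives about 1 in 20 such groups. In hepatocytes of uninjured controls, Lcn2 was 318 CPM (TMM-scaled) in mouse 9 and 27.0 to 53.9 CPM in the other 5. In the same group, Saa3 was 127 CPM in mouse 19 and 35.4 to 55.4 CPM in the other 5. In macrophages of uninjured controls, Hp was 653 CPM in mouse 7 and 324 to 353 CPM in the other 3.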

How the results depend on the processing

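No paired analysis was possible because the groups compared within a cell type share no mouse. No called log2 difference changed sign under any alternative. Of 100 differences (10 genes, each comparison and cell type), 4 changed sign with the file series as a term and 5 in the second series alone, none of them called. In hepatocytes these were Saa3 in the uninjured knockout (0.72 to -0.12 with the term), Lcn2 in the injured knockout (0.23 to -0.54 with the term and -0.37 in the second series), and, after CCl4 in controls, Orm1 (-0.23 to 0.43) and Orm2 (-0.04 to 0.70) in the second series and Hpx (-0.03 to 0.01 and 0.07). In macrophages it was Saa3 in the injured knockout (0.13 to -0.28 and -0.03). The values below are the number of the 10 genes called. The share of all genes called under each setting is not given beside them. A change in number therefore cannot be read as particular to these genes. In hepatocytes, CCl4 in controls called 2 and the second file series alone 1. The uninjured knockout called 3, DESeq2 5, limma voom 5, and the series as a term or the second series alone 0. The injured knockout called 1, DESeq2 3, the contrast's own groups 2, and the older quasi-likelihood method, no filter, the conflicting library as a knockout or thinned counts 0. CCl4 in knockout mice called 6, and no filter 3. The interaction called 0, DESeq2 2, and RLE factors, no filter, limma voom, non-robust fits or the series as a term 1. In macrophages, CCl4 in controls called 3, no filter 6, and the second series alone, the conflicting library as a knockout or thinned counts 1. The uninjured knockout called 0, no filter 3, and DESeq2, limma voom, non-robust fits or own groups 1. The injured knockout called 0 and no filter 2, CCl4 in knockout mice 0 and no filter 2, and the interaction 0, no filter 4 and DESeq2 1. The unfiltered fits in macrophages gave adjusted p-values as low as 1.51e-39 (Saa3, uninjured knockout), and the cause of these shifts was not tested.

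Leaving out each library in turn gave 2 to 4 calls for CCl4 in control hepatocytes (4 without control mouse 9), 1 to 5 for the uninjured knockout (5 without control mouse 9, and 1 without knockout mouse 4, 5 or 20 or control mouse 7 or 8) and 0 to 1 for the injured knockout (0 without any of 14 of the 18 libraries). CCl4 in knockout hepatocytes gave 3 to 8 (3 without mouse 18) and the interaction 0 to 2 (2 without control mouse 19, and 1 without mouse 9, 10, 12, 15 or 21). In macrophages CCl4 in controls gave 1 to 4 (1 without mouse 8, 11, 15 or 16), the uninjured knockout 0 to 1 (1 without control mouse 9), the injured knockout and CCl4 in knockout mice 0 to 0, and the interaction 0 to 1 (1 without mouse 12). Depth limited Orm2 in macrophages, with at most 23 counts, and calls near the threshold.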
